A study of Mus musculus with 16 samples.

Results

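Expression of 7 genes that mark the primed epiblast state, Otx2, Pou3f1, Zic2, Zic5, Fgf5, Nodal and Lefty2, was described in mouse embryonic stem (ES) cells with and without Rybp. The 7 genes were chosen by name as markers of that state, with earlier results of these data known. They are 7 of the 18193 genes that the arrays measured with a probe set carrying 1 gene symbol. Together they have 12 probe sets of 45101, where a probe set is a group of oligonucleotides on the array that read 1 transcript region. The probe set with the highest mean log2 intensity over the 16 arrays stands for its gene, and the other 5 are given beside it.

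Naive ES cells resemble the epiblast before implantation, and primed cells resemble it after implantation. Otx2, Pou3f1, Zic2 and Zic5 encode transcription factors that appear or increase as cells leave the naive state, Otx2 being the homeodomain factor that acts early in this step in mouse ES cells. Fgf5 encodes a fibroblast growth factor that is a classical mark of the epiblast after implantation, Nodal a TGF-beta family ligand that signals through activin receptors and Smad2 or Smad3, and Lefty2 a secreted inhibitor of Nodal that is also its target. Rybp encodes a subunit of variant Polycomb repressive complexes 1.

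All arrays came from ES cells of a 129/B6 hybrid background, clones 10 and 15, grown with serum and ESGRO either on irradiated embryonic fibroblasts or on gelatin, and the labels do not say which surface each array had. The 4 groups were Rybp-deficient (KO) cells at day 4, untreated wild-type control cells at day 4, KO cells at day 12 and untreated wild-type control cells at day 12, with 4 arrays each (2 for each clone, numbered 1 and 2). KO cells had received 800 nM 4-hydroxytamoxifen (OHT) for 24 hours to delete Rybp, and no control cells received OHT, so OHT and the loss of Rybp cannot be told apart. The comparison of KO with control cells asks how these genes stood after Rybp was lost, and the 2 days ask whether that changed with time. Both clones carry the same label of genotype within a group, and the labels do not say that the numbered arrays came from separate cultures, so the error behind each p-value is that between arrays and may be technical.

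The Rybp probe set 1421111_at averaged 97.4 ± 18.5 in KO cells and 2753 ± 609 in control cells at day 4 (SD, n = 4 each), and 189 ± 74.6 in KO cells and 3029 ± 334 in control cells at day 12. The groups did not overlap on either day. The second Rybp probe set, 1428219_at, was higher in KO cells over both days (log2 difference 2.89 ± 0.52, limma adjusted p = 0.00643) but passed on neither day alone (0.0518 at day 12 and 0.154 at day 4). Its difference was 4.64 in clone 15 (adjusted p = 8.14e-05) and 1.13 in clone 10 (0.0981). Its control level was lower in clone 15 than in clone 10 by a log2 value of -3.27 (0.00425). Both Rybp probe sets are also annotated to a Rybp pseudogene. At day 4 the arrays numbered 2 stood apart from those numbered 1: 5178 of 18195 entries tested, 28.5%, differed between the numbers at a limma adjusted p under 0.05. The 3' transferrin receptor control probe set read 11.52 to 11.67 log2 on the arrays numbered 2 and 9.97 to 10.15 log2 on those numbered 1. Otx2 at day 4 is therefore also given within each number. The summed intensity of 10 core pluripotency genes was 108246 to 129099 on every array. Dppa5a was the largest part of it, with group means of 43403 to 47810, so the sum says little about a mix of cell types.

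The members covered a wide range of signal. Averaged over the 16 arrays, intensity was 1598 for Nodal, 1499 for Otx2, 989 for Zic5, 759 for Lefty2, 505 for Pou3f1, 98.9 for Zic2 and 28.1 for Fgf5, values on a linear scale that are not set against each other because each probe set has its own response. Zic2 lay at the 50.05 percentile of mean log2 intensity over all probe sets, and Fgf5 at the 20.7 percentile. Fgf5 was at or under 28.2, the 25th percentile of all intensities, on 10 of 16 arrays, and its second probe set on 14 of 16.

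Otx2 was the member with the clearest difference between KO and control cells. At day 12 its intensity was 614 and 546 in KO cells of clone 10 and 616 and 564 in KO cells of clone 15, against 1817 and 2333 in control cells of clone 10 and 1735 and 1771 in control cells of clone 15. Every KO array lay below every control array, as for 4.67% of all genes in that direction. Otx2 fell to 585 ± 35.5 in KO cells at day 12, against 1914 ± 281 in control cells (SD, n = 4 each), a log2 difference of -1.70 ± 0.25 (SE; 95% interval -2.24 to -1.16), or 3.25-fold lower (limma adjusted p = 0.00267). It was the only member of 7 past the threshold of an adjusted p under 0.05 at day 12, where 3.09% of all genes passed it and 0.901% passed it as lower. Among genes lower in KO cells at day 12 it was number 17 by p-value.

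At day 4 Otx2 read 818 and 2023 in KO cells of clone 10 and 908 and 1411 in KO cells of clone 15, against 1995 and 2621 in control cells of clone 10 and 1706 and 2504 in control cells of clone 15. The groups overlapped, since the KO array of clone 10 numbered 2 was above 2 control arrays. Among arrays numbered 2 the values were 2023 and 1411 in KO cells and 2621 and 2504 in control cells. Among arrays numbered 1 they were 818 and 908 in KO cells and 1995 and 1706 in control cells. Each of these sets 2 arrays against 2, and the share of all genes with the same order was not counted. The means were 1289.9 ± 554 in KO cells and 2207 ± 430.2 in control cells (SD, n = 4 each), and the log2 difference of -0.85 ± 0.25 did not pass the test (limma adjusted p = 0.218). No member passed it at day 4, where 0.627% of all genes did. With the replicate number within each day as a term, a fit added after the data were seen, the same difference had an SE of 0.14 and an adjusted p of 0.0153.

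Otx2 was lower in KO cells in 8 of 8 pairs matched by clone, day and number, as were 5.04% of all genes. The pairwise log2 differences, KO minus control, were -1.29, -0.37, -0.91 and -0.83 at day 4 and -1.56, -2.09, -1.49 and -1.65 at day 12. Over both days the difference was -1.28 ± 0.18, or 2.42-fold lower (limma adjusted p = 0.0011), in a test that 4.71% of all genes passed and 1.46% passed as lower. The difference at day 12 was more negative than that at day 4 by 0.85 ± 0.35 on the log2 scale, but this change with time did not pass the test (limma adjusted p = 0.9999, unadjusted p = 0.0317). limma called 0 genes for it, 0%, with 832 genes at an unadjusted p under 0.05. Both clones gave a value of like size: -1.22 in clone 15 and -1.33 in clone 10 over both days, with limma adjusted p = 0.117 in clone 15 and 0.083 in clone 10 on 4 KO and 4 control arrays each, where 0.588% and 0.72% of all genes passed. The clones' effects differed by 0.11 ± 0.40 (95% interval -0.79 to 1.01, limma adjusted p = 0.9999, with 0% of all genes called).

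**Figure D1:**
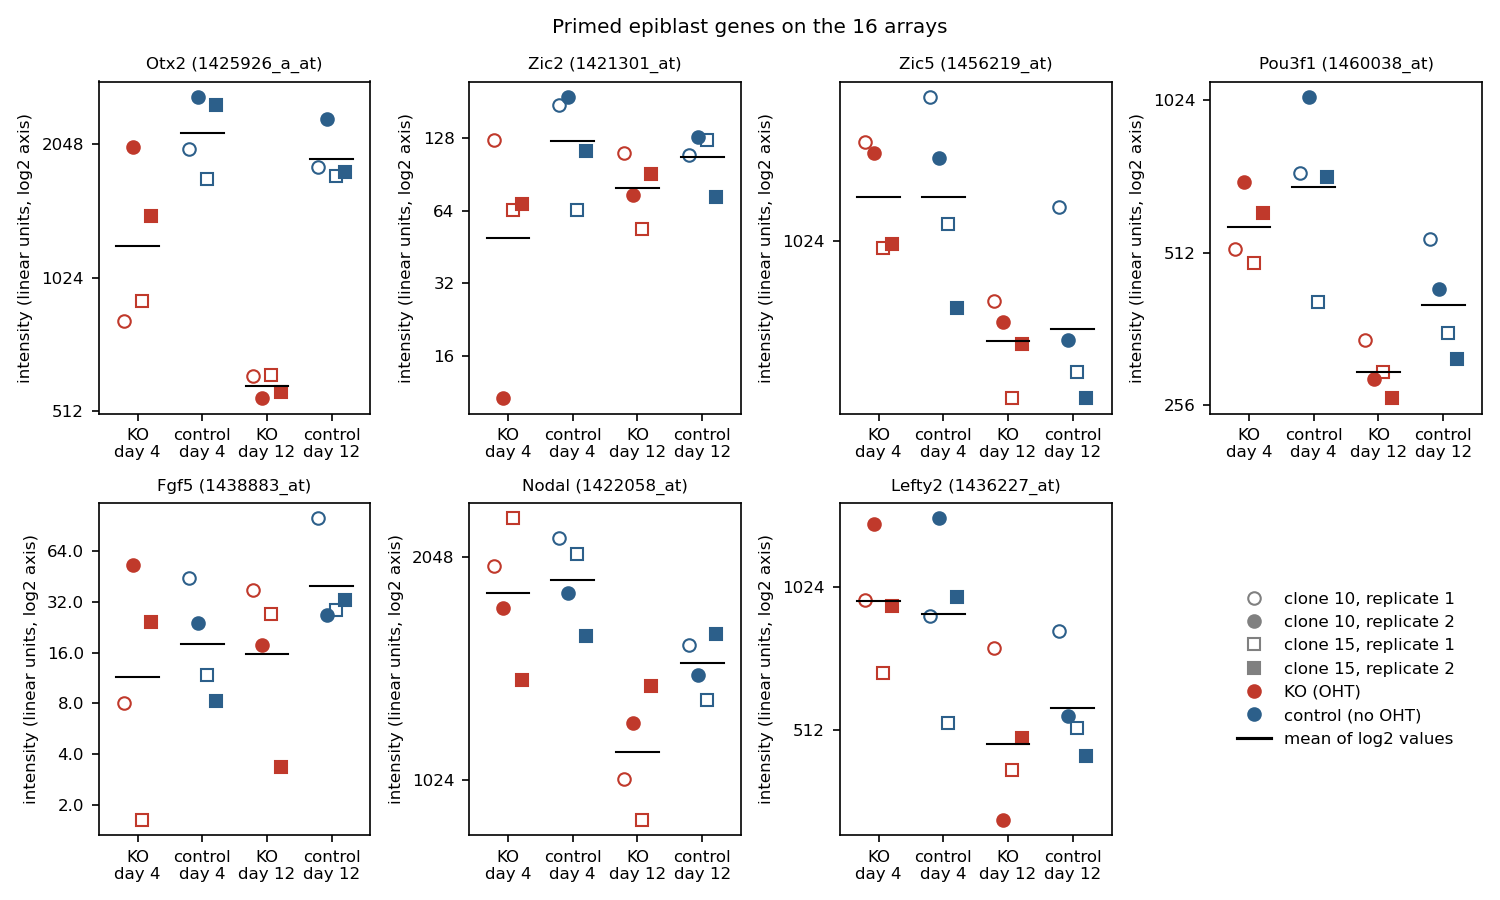
Intensity of the 7 genes on each array (vertical axes: linear intensity on a log2 axis, a separate range for each gene; horizontal axes: KO and control cells at day 4 and day 12). Circles are clone 10 and squares clone 15, open symbols are replicate 1 and filled symbols replicate 2, and the bar is the mean of the log2 values (n = 4); the 4 KO arrays of day 12 lie at 546 to 616 for Otx2, below the controls of that day at 1735 to 2333, while the groups overlap for the other genes.

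The RefSeq promoter windows of 250 bases before to 50 after a start (GRCm38.p6) matched 4 of the 7 genes: Otx2 with 4 starts, and Fgf5, Nodal and Zic5 with 1 each. CpG content is shown because Polycomb complexes are known to gather at CpG-rich promoters in ES cells. The windows of Otx2 hold 6, 8, 16 and 11 CpG, that of Zic5 15, that of Nodal 5 and that of Fgf5 29, against a median of 7 over 32851 promoters. The Otx2 starts with the most and with the fewest CpG and the Fgf5 start, which is the densest of the members, are printed 5′ to 3′ on the strand of the gene, with each CpG in capitals.
Otx2, chr14:48665060-48665359, minus strand: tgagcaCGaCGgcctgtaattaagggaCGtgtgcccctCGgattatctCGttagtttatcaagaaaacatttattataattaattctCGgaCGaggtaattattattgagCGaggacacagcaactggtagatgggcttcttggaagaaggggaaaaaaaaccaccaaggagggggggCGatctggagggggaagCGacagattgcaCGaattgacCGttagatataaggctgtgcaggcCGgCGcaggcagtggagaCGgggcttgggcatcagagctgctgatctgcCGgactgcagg
Otx2, chr14:48667595-48667894, minus strand: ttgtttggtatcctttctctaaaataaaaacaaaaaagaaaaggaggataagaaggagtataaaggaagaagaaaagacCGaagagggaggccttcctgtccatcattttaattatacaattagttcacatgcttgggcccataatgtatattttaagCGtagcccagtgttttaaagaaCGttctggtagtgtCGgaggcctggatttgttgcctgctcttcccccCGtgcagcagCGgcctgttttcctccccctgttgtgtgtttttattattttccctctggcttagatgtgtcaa
Fgf5, chr5:98253934-98254233, plus strand: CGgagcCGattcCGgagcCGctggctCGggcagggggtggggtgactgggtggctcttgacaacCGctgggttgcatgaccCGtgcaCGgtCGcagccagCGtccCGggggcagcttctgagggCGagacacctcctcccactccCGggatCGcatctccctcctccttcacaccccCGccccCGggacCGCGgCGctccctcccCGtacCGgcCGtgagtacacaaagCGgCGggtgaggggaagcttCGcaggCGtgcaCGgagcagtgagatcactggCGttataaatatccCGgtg
The letters CACGTG (an E-box, in 7.15% of all promoters), TCCCGC (an E2F core, 20% of promoters) and CCATNTT (a YY1 core, 16.1% of promoters), searched on both strands, do not occur in the member windows. The arrays hold no measure of binding at these sequences, and the differences of Otx2 and Fgf5 are given without reference to them.

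Pou3f1, a POU-domain factor also known as Oct6, had lower values in KO cells without passing the test. At day 12 it read 345 and 289 in KO cells of clone 10 and 298 and 264 in KO cells of clone 15, against 545 and 435 in control cells of clone 10 and 355 and 316 in control cells of clone 15. Each KO array was below its paired control, but the groups overlapped at the KO value of 345. On the second Pou3f1 probe set KO was lower in 3 of 4 pairs. The share of all genes lower in 4 of 4 pairs at day 12 was not counted. The log2 difference at day 12 was -0.44 ± 0.21 (limma adjusted p = 0.351). At day 4 it read 519.9 and 707 in KO cells of clone 10 and 489 and 614 in KO cells of clone 15, against 735 and 1041 in control cells of clone 10 and 409 and 722 in control cells of clone 15 (-0.26 ± 0.21, limma adjusted p = 0.872). The only pair of the 8 in which KO was higher was that of clone 15 numbered 1 at day 4. Over both days Pou3f1 had a log2 difference of -0.35 and an adjusted p of 0.239, which became 0.0301 with the replicate number as a term. Its second probe set, 1422068_at, did not follow the first over the 16 arrays (r = -0.042) and differed by -0.17 ± 0.32 over both days.

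Zic5, a zinc-finger factor of the Zic family, had differences near 0 between KO and control cells. At day 4 it read 1351 and 1311 in KO cells of clone 10 and 1004 and 1016 in KO cells of clone 15, against 1535 and 1294 in control cells of clone 10 and 1075 and 848 in control cells of clone 15. At day 12 it read 867 and 817 in KO cells of clone 10 and 659 and 767 in KO cells of clone 15, against 1128 and 776 in control cells of clone 10 and 709.8 and 660.3 in control cells of clone 15. KO and control arrays were interleaved on both days, with log2 differences of -0.0011 ± 0.14 (95% interval -0.30 to 0.29) at day 4 and -0.049 ± 0.14 (-0.34 to 0.25) at day 12 (limma adjusted p = 0.999 and 0.925). The other Zic5 probe sets, 1456140_at and 1425666_at, differed by -0.049 ± 0.20 and 0.0028 ± 0.14 over both days.

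Zic2, the related factor that is needed for forebrain development, was measured near the middle of the array's range and with wide scatter. At day 4 it read 126 and 10.6 in KO cells of clone 10 and 64.5 and 68.1 in KO cells of clone 15, against 177 and 191 in control cells of clone 10 and 64.3 and 114 in control cells of clone 15. The value of 10.6 stood far below the rest. The log2 difference of -1.35 ± 0.62 (limma adjusted p = 0.582) was -0.50 without that array, the KO array of clone 10 numbered 2. At day 12 Zic2 read 111 and 74.7 in KO cells of clone 10 and 53.7 and 90.9 in KO cells of clone 15, against 109 and 130 in control cells of clone 10 and 126 and 73.4 in control cells of clone 15, and 2 of 4 pairs were lower in KO cells (-0.42 ± 0.62, limma adjusted p = 0.827).

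Nodal, the ligand, gave overlapping groups on both days. At day 12 it read 1027 and 1222 in KO cells of clone 10 and 904 and 1373 in KO cells of clone 15, against 1558 and 1419 in control cells of clone 10 and 1315 and 1616 in control cells of clone 15. It was lower in KO cells in 4 of 4 pairs, and the overlap came from the KO value of 1373, which lay above the control value of 1315. On the second Nodal probe set KO was lower in 3 of 4 pairs, and the share of all genes lower in 4 of 4 was not counted. The log2 difference was -0.40 ± 0.18 (95% interval -0.79 to -0.01), which did not pass the test over all genes (limma adjusted p = 0.32, unadjusted p = 0.0453). At day 4 it read 1996 and 1747 in KO cells of clone 10 and 2315 and 1397 in KO cells of clone 15, against 2178 and 1835 in control cells of clone 10 and 2067 and 1602 in control cells of clone 15 (-0.058 ± 0.18, limma adjusted p = 0.994). The second Nodal probe set, 1422057_at, gave -0.22 ± 0.13 over both days beside -0.23 ± 0.13 for the first.

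Lefty2, the Nodal inhibitor, read 964 and 1390.1 in KO cells of clone 10 and 675 and 935 in KO cells of clone 15 at day 4, against 889 and 1433 in control cells of clone 10 and 528 and 976 in control cells of clone 15. At day 12 it read 761 and 331 in KO cells of clone 10 and 422 and 491 in KO cells of clone 15, against 828 and 547 in control cells of clone 10 and 516 and 450.2 in control cells of clone 15. The groups overlapped on both days and the log2 differences were 0.091 ± 0.29 at day 4 and -0.25 ± 0.29 at day 12 (limma adjusted p = 0.995 and 0.766).

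Fgf5, the growth factor, was dim and its measurements were imprecise. At day 12 its intensity was 37.7 and 17.8 in KO cells of clone 10 and 27.2 and 3.36 in KO cells of clone 15, against 100.3 and 26.6 in control cells of clone 10 and 28.5 and 32.7 in control cells of clone 15. At day 4 it was 8.06 and 52.9 in KO cells of clone 10 and 1.63 and 24.2 in KO cells of clone 15, against 44.5 and 24.0 in control cells of clone 10 and 11.8 and 8.28 in control cells of clone 15. KO was lower in 4 of 4 pairs at day 12 and in 2 of 4 at day 4. On the second Fgf5 probe set KO was lower in 1 of 4 pairs at day 12, and the share of all genes lower in 4 of 4 was not counted. The log2 differences were -1.33 ± 0.88 (95% interval -3.25 to 0.58) at day 12 and -0.66 ± 0.88 at day 4, and neither passed the test (limma adjusted p = 0.541 and 0.964). The second Fgf5 probe set gave 0.055 ± 0.41 over both days and did not follow the first over the arrays (r = -0.14).

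**Figure D2:**
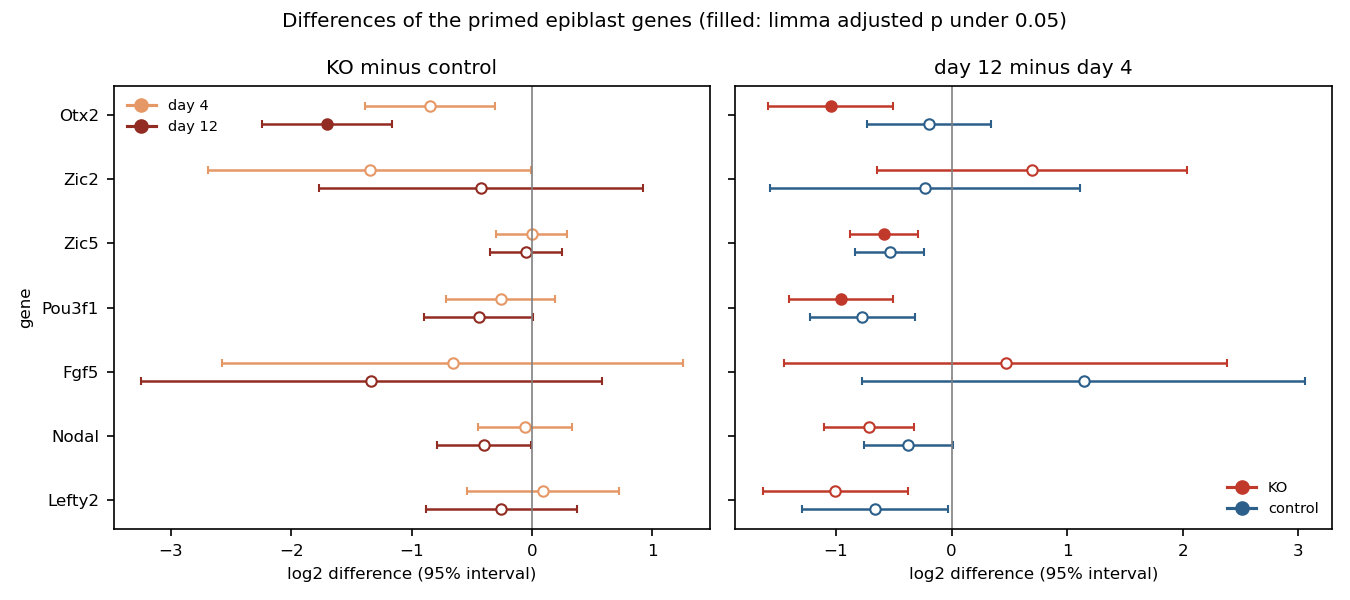
Log2 differences of the 7 genes (points, horizontal axes in log2 units) with 95% intervals (bars) from the limma fit, KO minus control at day 4 and day 12 (left) and day 12 minus day 4 in KO and control cells (right). Filled points passed an adjusted p under 0.05 over all genes: Otx2 alone on the left at day 12, and Otx2, Zic5 and Pou3f1 on the right in KO cells.

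Over the 7 members the log2 difference was below 0 for 6 at day 4 and for 7 at day 12, where 48.3% and 48.4% of all genes were below 0. Their median was -0.26 at day 4 and -0.42 at day 12, against 0.0094 and 0.014 for all genes. With 1 member past the test, these medians describe the list and not a change of its members.

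In KO cells 3 of 7 members fell at day 12 against day 4, where 1.03% of all genes fell and 3.27% changed: Otx2 (-1.05 ± 0.25, limma adjusted p = 0.0395), Zic5 (-0.58 ± 0.14, adjusted p = 0.0371) and Pou3f1 (-0.96 ± 0.21, adjusted p = 0.0275). Nodal (-0.71 ± 0.18, adjusted p = 0.0502) and Lefty2 (-1.005 ± 0.29, adjusted p = 0.0873) missed the threshold. With the replicate number as a term, an alternative added after the data were seen, they passed it (0.00363 and 0.00852). On the main probe sets of Otx2, Zic5, Pou3f1 and Nodal every KO array of day 12 lay below every KO array of day 4, as for 4.49% of all genes. The second probe sets of Nodal and Pou3f1 differed little, by -0.013 ± 0.19 and -0.24 ± 0.46. For Zic5, 1456140_at gave -0.78 ± 0.28 and 1425666_at gave -0.091 ± 0.20. None of these passed in a limma fit over every probe set (lowest adjusted p = 0.23), and in that fit the main probe sets did not pass either.

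In control cells 0 of 7 members passed the limma test between the days, where 0.995% of all genes did, and the unadjusted p was under 0.05 for 3 of them, Zic5, Pou3f1 and Lefty2. The control values were -0.54 ± 0.14 for Zic5 (limma adjusted p = 0.0905), -0.77 ± 0.21 for Pou3f1 (0.109), -0.66 ± 0.29 for Lefty2 (0.335) and -0.37 ± 0.18 for Nodal (0.384). The second probe sets gave 0.12 ± 0.46 for Pou3f1 and 0.050 ± 0.19 for Nodal in control cells. The other Zic5 probe sets gave -0.61 ± 0.28 (1456140_at) and -0.056 ± 0.20 (1425666_at). With the replicate number as a term, Zic5 (adjusted p = 0.022) and Pou3f1 (0.00684) passed in control cells too. Otx2 differed by -0.19 ± 0.25 in control cells (adjusted p = 0.797). The test of whether the day difference itself differs between KO and control cells is the change with time given above, and it called no gene. The calls in KO cells depended on single arrays: over 16 fits that each left out 1 array, Otx2 was called in 4, Zic5 in 7 and Pou3f1 in 9, with adjusted p-values up to 0.119, 0.107 and 0.0867. The Otx2 call was kept without either day 4 KO array numbered 1 or either day 4 control array of clone 15. The Zic5 call was lost without any KO array except that of clone 15 numbered 2 at day 12, and also without the control array of clone 15 numbered 2 at day 12 or that of clone 10 numbered 2 at day 4. The Pou3f1 call was lost without any KO array except that of clone 10 numbered 1 at day 4.

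The clones did not differ past the threshold for any member. In control cells of clone 15 Otx2 spanned 1706 to 2504, against 1817 to 2621 in control cells of clone 10. Pou3f1 spanned 316 to 722 in control cells of clone 15 and 435 to 1041 in control cells of clone 10, and Zic5 spanned 660.3 to 1075 in clone 15 and 776 to 1535 in clone 10. These ranges pool the 2 days. The log2 differences, clone 15 minus clone 10, were below 0 for all 7 members. They were -1.24 for Fgf5, -0.71 for Zic2, -0.61 for Pou3f1, -0.57 for Lefty2, -0.51 for Zic5, -0.19 for Otx2 and -0.082 for Nodal. All had a limma adjusted p of 0.656 or more, in a comparison in which 0.066% of all genes passed. The unadjusted limma p was 0.00805 for Zic5 and 0.0184 for Pou3f1.

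The test between the replicate numbers comes from the fit with the number as a term, which has a smaller error than the main fit. The SE of Otx2 at day 4 was 0.14 there and 0.25 in the main fit. In the fit with the number, 4 members passed between the numbers at day 4. Between KO and control cells at day 4, 1 passed in that fit, where 373 of 18195 entries did, and 0 in the main fit. Of the 7 members, 3 were higher and 1 was lower on the 4 arrays numbered 2, where 10.6% of all genes were higher and 17.8% lower (1931 and 3247 genes, against 2711 and 2364 under housekeeping scaling). Otx2 spanned 1411 to 2621 on the arrays numbered 2 and 818 to 1995 on those numbered 1 (0.72 ± 0.14, limma adjusted p = 0.00357). Pou3f1 spanned 614 to 1041 on the arrays numbered 2 and 409 to 735 on those numbered 1 (0.52, adjusted p = 0.0119). Lefty2 spanned 935 to 1433 on the arrays numbered 2 and 528 to 964 on those numbered 1 (0.64, adjusted p = 0.0335). Nodal was lower on the arrays numbered 2, at 1397 to 1835 against 1996 to 2315 on those numbered 1 with no overlap (-0.38, adjusted p = 0.033), as for 16.8% of all genes in that direction. The Nodal call was lost without either day 4 KO array of clone 15, either day 4 control array of clone 15 or the day 4 control array of clone 10 numbered 1 (adjusted p up to 0.11). The Lefty2 call was lost without any day 4 array except the KO array of clone 15 numbered 2 (adjusted p up to 0.106). At day 12 no member passed this test, and 6.49% of all genes did.

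Probe sets of 1 gene did not move together between the numbers. In a fit over every probe set, Pou3f1 1460038_at was higher on the arrays numbered 2 (0.52 ± 0.14, limma adjusted p = 0.0202). Pou3f1 1422068_at was lower, at 83.5 to 155 on the arrays numbered 2 against 251 to 364 on those numbered 1 (-1.42 ± 0.22, adjusted p = 0.00134). The Zic5 probe sets 1456140_at (-0.71, adjusted p = 0.0024) and 1425666_at (-0.56, adjusted p = 0.00302) were lower on the arrays numbered 2, beside -0.15 for the main Zic5 probe set (adjusted p = 0.469). The second Nodal probe set gave 0.11 beside -0.38 for the first. Which transcript regions these probe sets read was not examined, and whether RNA quality had a part in the difference between the numbers was not tested.

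**Figure D3:**
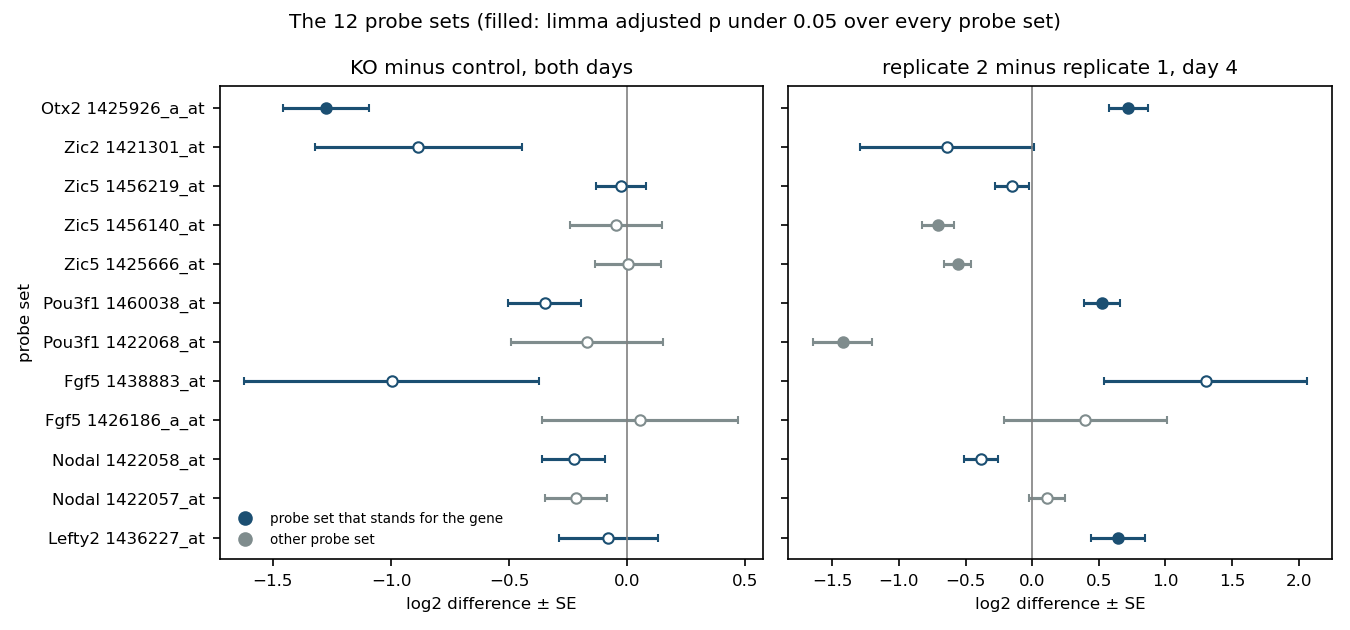
Log2 differences (points, horizontal axes in log2 units, bars ± SE) of each of the 12 probe sets, KO minus control over both days (left) and replicate 2 minus replicate 1 at day 4 (right). Otx2 is the only filled point on the left, at -1.28, while on the right the 2 Pou3f1 probe sets stand on opposite sides of 0, at 0.52 and -1.42, both filled.

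Of 19 further genes of the primed epiblast measured, 0 passed limma's test in either direction at day 4, where 0.627% of all genes did. At day 12, where 0.901% of all genes were lower, 1 was. The median log2 differences were -0.14 at day 12 and -0.049 at day 4. The gene that passed was Utf1, a chromatin-bound factor of pluripotent cells, at 5400 ± 1271 in KO cells and 9493 ± 2040 in control cells at day 12 (SD, n = 4 each; -0.82 ± 0.18, limma adjusted p = 0.0256). The largest differences that did not pass, over both days, were -0.47 for Lef1 and -0.45 for Etv5. At day 12 the difference was below 0 for 12 of the 19, where 48.4% of all genes were below 0. Dkk1 went the other way at day 12 without passing (1.46 ± 0.40, limma adjusted p = 0.0775). The summed intensity of the 19 genes was 26314 to 28217 in KO cells and 28812 to 39767 in control cells at day 12, and 26584 to 34264 in KO cells and 26729 to 39794 in control cells at day 4. The day 12 sums did not overlap, and how often sums of other gene sets fail to overlap was not counted. Utf1 and Etv5 made up most of the gap between the mean sums, with means of 5400 for Utf1 and 4098 for Etv5 in KO cells, against 9493 and 6284 in control cells.

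In the Nodal pathway, 21 genes were measured, of which 0 passed at day 4 by limma, where 0.627% of all genes did. At day 12, 2 passed as higher in KO cells and 0 as lower, where 2.19% and 0.901% of all genes did. The log2 difference at day 12 was below 0 for 15 of the 21, where 48.4% of all genes were below 0. The median was -0.13, against 0.014 for all genes. Inhbb, which encodes the beta B subunit of activins and inhibins, averaged 632 ± 157 in KO cells and 280.4 ± 27.1 in control cells at day 12 (1.14 ± 0.16, limma adjusted p = 0.00193). Smad2, the signal transducer, averaged 1281 ± 66.1 in KO cells and 918 ± 122 in control cells (0.49 ± 0.11, adjusted p = 0.0369). Over both days, where 4.71% of all genes passed in either direction, the 2 genes that passed were Inhbb and Pmepa1, both higher. Pmepa1, a feedback inhibitor of the pathway, differed by 0.55 ± 0.14 (limma adjusted p = 0.0475). Cer1, a secreted Nodal antagonist, had the largest value that did not pass, -1.61 ± 0.59 over both days (adjusted p = 0.172), at a mean intensity of 41.5 or less in each group.

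Paralogues of the members were dim. The 7 measured relatives of Otx2, Zic2, Zic5 and Pou3f1 summed to 135 to 391.9 on every array and 0 passed the test by limma at day 4, day 12 or over both days; Otx1 differed by -0.82 and Zic1 by 1.23 over both days (adjusted p = 0.422 and 0.26). Of 8 FGF ligands and receptors other than Fgf5, 1 passed over both days, where 4.71% of all genes did: Fgfr3, a receptor, was higher in KO cells (0.94 ± 0.23, limma adjusted p = 0.0348).

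The naive markers gave 0 calls of 18 at day 4 by limma, where 0.627% of all genes passed. At day 12, where 2.19% of all genes were higher in KO cells, 2 of the 18 were: Tbx3 (1.22 ± 0.23, limma adjusted p = 0.0133) and Tcl1 (0.56 ± 0.13, adjusted p = 0.0306). Their median at day 12 was 0.048, and the summed naive level was 50935 to 62707 in KO cells and 42982 to 59647 in control cells. Of 10 core pluripotency genes 1 passed, Fbxo15, an Oct4 target that was higher at day 4 (0.58) and day 12 (1.04, limma adjusted p = 1.78e-04). Most of the list went the other way without passing. The log2 difference was below 0 for 9 of the 10 at day 12 (median -0.20) and for 7 at day 4 (median -0.076). Of all genes, 48.4% and 48.3% were below 0. Of 13 gastrulation genes and 10 anterior neural genes 0 passed by limma on either day. Beside these counts, 0.627% of all genes passed at day 4 and 3.09% at day 12.

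Of 18 markers of primitive and visceral endoderm, 17 rose in KO cells at day 12 against day 4 (median 3.08), where 2.24% of all genes were higher, and 11 rose in control cells (median 2.26), where 0.654% were. Their summed intensity was 43360.2 to 64214 in KO cells and 31713 to 47303 in control cells at day 12, against 8467 to 14205 in KO cells and 7679 to 13821 in control cells at day 4, and no marker was at 0. The ranges of these sums overlapped between KO and control cells on both days. At day 12 the median log2 difference of the 18 markers, KO minus control, was 0.65, against 0.014 for all genes. The difference was below 0 for 1 of the 18, where 48.4% of all genes were below 0. At day 12, 2 of the 18 passed the test as higher in KO cells, where 2.19% of all genes did: Gata6 (0.98 ± 0.24, limma adjusted p = 0.0483) and Amn (1.08 ± 0.20, adjusted p = 0.0115). Otx2 is also known in visceral endoderm, and in these bulk samples fewer cells of a type and less RNA per cell cannot be told apart. The part of these cells in the differences of Otx2, Zic5 and Pou3f1 was not tested.

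Markers of fibroblast feeders gave 1 call of 19 on each day, Tgfbi, where 0.627% of all genes were called at day 4 and 3.09% at day 12. Their summed level overlapped, at 10147 to 14574 in KO cells and 10621 to 17277 in control cells at day 12 and at 8560 to 13935 in KO cells and 8990 to 15357 in control cells at day 4. Of 11 trophectoderm genes 2 passed as higher in KO cells at day 12, where 2.19% of all genes did: Cdx2 and Gata3, both at group means of 47.5 or less. At day 4, where 0.627% of all genes passed, 0 of the 11 did. Their summed level did not overlap at day 4, at 4307 to 4856 in KO cells and 3227 to 3914 in control cells. It overlapped at day 12, at 4986 to 7085 in KO cells and 4226 to 5423 in control cells. Tfap2c was the largest part of the day 4 sum, with means of 2360 in KO cells and 1955 in control cells. How often sums of other gene sets fail to overlap was not counted. Between the replicate numbers at day 4, 7 of 18 endoderm, 6 of 19 feeder and 8 of 18 naive markers were lower on the arrays numbered 2, and 2 naive markers were higher, where 17.8% of all genes were lower and 10.6% higher. The summed feeder level was 8560 to 10340 on the arrays numbered 2 and 13080 to 15357 on those numbered 1, with no overlap. Fn1 was the largest part of this sum, with day 4 means of 5991 in KO cells and 7385 in control cells. Dcn, Lum and Fap had day 4 group means of 50.5 or less. How much of the sum came from feeder cells was not tested. The summed endoderm level was 7679 to 9222 on the arrays numbered 2 and 10024 to 14205 on those numbered 1, and the summed naive level 43484 to 52276 on the arrays numbered 2 and 54785 to 65710 on those numbered 1. The part of these cells in the number differences of Otx2, Pou3f1, Lefty2 and Nodal was not tested.

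**Figure D4:**
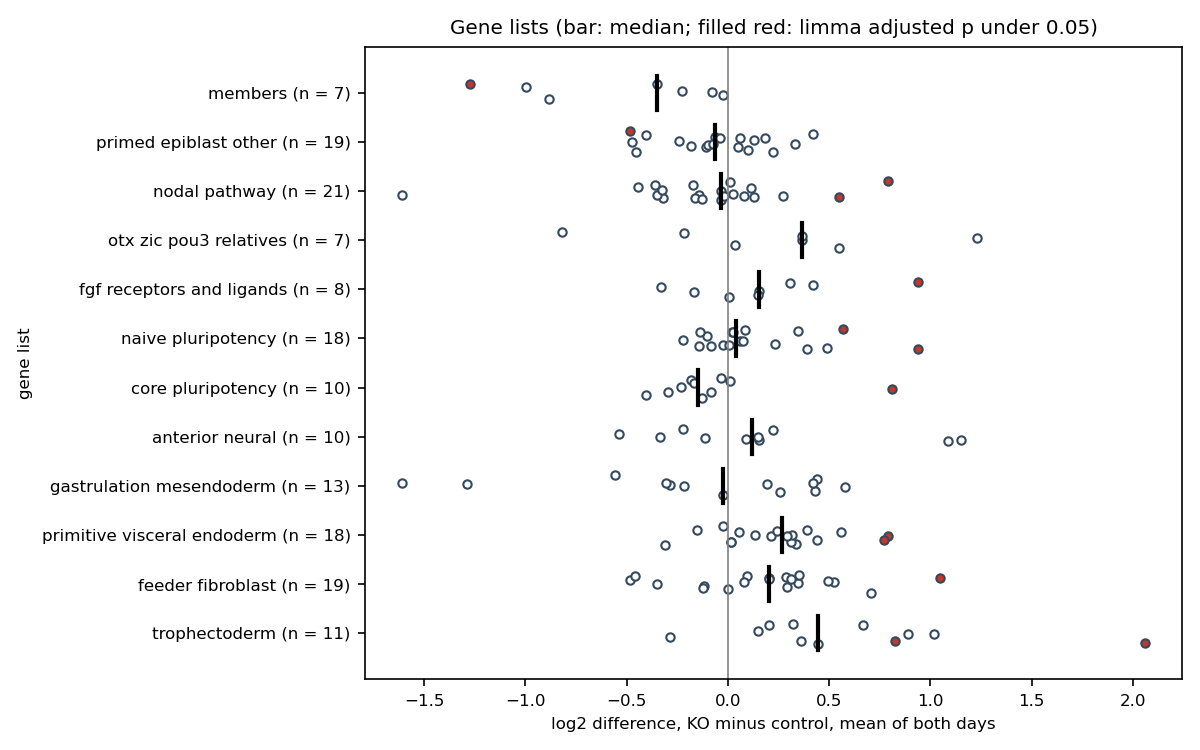
Log2 difference of each listed gene, KO minus control over both days (horizontal axis, log2 units), by list (rows, with the number of genes measured). Red points passed a limma adjusted p under 0.05 and the bar is the median; the median of the 7 members is -0.35 and that of the 19 other primed epiblast genes -0.065.

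Over the 16 arrays, the genes whose log2 values followed those of Otx2 most closely, among 9097 at or above the median level, were Usp28 (r = 0.96), Tor3a (0.95), Pitpnc1 (0.94), Hirip3 (0.94) and 2610037D02Rik (0.93). These correlations hold group, day and number together and are a description. Among the members, r with Otx2 was 0.70 for Pou3f1, 0.51 for Lefty2, 0.48 for Nodal, 0.37 for Fgf5, 0.32 for Zic5 and 0.10 for Zic2. The closest pair of members was Pou3f1 and Lefty2, with r = 0.90 over the 16 arrays and 0.86 for the deviations from the group means.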

How the data were processed

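RNA of ES cells was hybridised to 16 Affymetrix mouse arrays. The deposited values are intensities on a linear scale that the authors made with RMA in Affymetrix Expression Console, per the submitters' processing notes; no version is given in the sources used here, and all 16 columns hold the same sorted values, as quantile normalization gives. Precision is set by the number of arrays. The design text names the 430A 2.0 array, but 45101 probe sets were deposited.

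The log2 of each intensity was taken with no offset; the design had assumed values already on a log2 scale. Of the probe sets, 34945 carried 1 gene symbol in the platform annotation, 932 several and 9160 none; 64 control probe sets were left out. The probe set with the highest mean log2 stood for a gene, which gave 18193 genes and, with 2 Rybp probe sets, 18195 entries. limma 3.58.1 in R 4.3.3 was fitted to all 16 arrays (lmFit, eBayes) with 4 groups and clone as terms, and Benjamini-Hochberg adjusted p-values were taken over all entries with a threshold of 0.05. Clone contrasts came from a mean for each clone, day and treatment, and number contrasts from a fit with the replicate number within each day. On simulated data for the day 12 comparison over 18195 genes, the fit recovered 40% of genes changed by a log2 value of 1 in either direction, 70% of those raised by 2 and 58% of those lowered by 2.

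The members and lists were chosen with earlier results of these data known. Named were the 7 members with every single-symbol probe set, list genes past the threshold for KO against control (otherwise the 2 largest differences over both days), the 5 genes most correlated with Otx2, and Rybp. Alternatives were a floor at 28.2, dim genes left out, every probe set, scaling to 14 housekeeping genes, the compared arrays alone, each array left out, the 8 pairs as a block, and, added after the data were seen, the replicate number as a term. The deviations from the group means of KO and control arrays of the same clone, day and number had correlations of 0.027 to 0.16 over all entries. These arrays were therefore not taken as pairs in the main fit, which leaves the day 4 difference between the numbers in its error.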

Additional observations from a re-analysis of the deposited data

Results flagged for a closer look

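3 of 48 groups of 4 arrays (12 probe sets in 4 groups) had 1 array whose gap to the nearest other, divided by the group's range, was above Dixon's critical value for 4 samples; chance alone gives about 1 in 20 groups. The control array of clone 10 numbered 2 at day 12 read 2333 for Otx2, beside 1735 to 1817 on the other 3. The control array of clone 10 numbered 1 at day 12 read 100.3 for Fgf5 1438883_at, beside 26.6 to 32.7 on the others. The KO array of clone 15 numbered 1 at day 4 read 523 for the second Nodal probe set, 1422057_at, beside 586 to 598.1 on the others.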

How the results depend on the processing

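Otx2 stayed past the threshold at day 12 and over both days in each of 16 fits without 1 array (log2 -1.75 to -1.62, adjusted p up to 0.0132 at day 12) and under every other alternative run, and it missed it at day 4 in all of them except the fit with the replicate number as a term. With the 8 pairs as a replicate block, 178, 1479 and 1851 genes were called at day 4, day 12 and both days, and 1 for the change with time; Otx2 had an adjusted p of 0.071 at day 4 and 0.0026 at day 12, and no call on a member changed. With the floor, genes called were 216 at day 4, 908 at day 12, 1088 between days in KO cells, 490 in control cells (1 member, Zic5), 2 for the clone difference and 1932 between numbers at day 12. Without dim genes they were 344 in control cells, 1 for the clone difference and 1900 between numbers at day 12, and Fgf5 was not tested. Over every probe set they were 69 at day 4, 327 at day 12, 524 over both days, 299 between days in KO cells (0 members), 99 in control cells and 653 between numbers at day 12. With the compared arrays alone they were 36 at day 4, 249 at day 12, 96 between days in KO cells (0 members) and 21 in control cells. With the replicate number as a term they were 373 at day 4 (1 member), 2157 at day 12, 2573 over both days (2 members), 1 for the change with time, 2441 between days in KO cells (5 members) and 1715 in control cells (2 members). Under housekeeping scaling 1 member was called between days in KO cells; the split into higher and lower calls was 459 and 324 over both days (591 and 266 in the main fit), 68 and 19 at day 4 (103 and 11), 91 and 96 between days in control cells (119 and 62), and 2711 and 2364 between numbers at day 4 (1931 and 3247). It moved the median of all genes by 0.12 at most. Leaving out 1 array gave 66 to 111 genes at day 4, 287 to 536 at day 12, 239 to 593 between days in KO cells (0 to 3 members), 94 to 167 in control cells (0 to 1 members, Pou3f1 without the control array of clone 15 numbered 1 at day 4), 2 to 4 members between numbers at day 4, and 424 to 1206 genes between numbers at day 12; Nodal and Lefty2 kept that number call in 11 and 9 of 16 fits. The cause of these differences was not tested.

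Signs that turned all belonged to values that had not passed. With the floor, Fgf5 gave 0.062 at day 4 and -0.12 between days in KO cells. Over the fits without 1 array, the log2 ranges at day 4 were -1.31 to 0.11 for Fgf5, -0.090 to 0.071 for Zic5, -0.19 to 0.075 for Nodal and -0.11 to 0.25 for Lefty2. At day 12 they were -0.14 to 0.056 for Zic5 and -0.41 to 0.023 for Lefty2, and over both days -0.071 to 0.028 for Zic5 and -0.18 to 0.057 for Lefty2. Between days in KO cells they were -0.30 to 1.12 for Fgf5 and -0.15 to 1.15 for Zic2, and between numbers at day 4 -1.16 to 0.26 for Zic2.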
